A study of Mus musculus with 18 samples.

Results

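The mitochondrially encoded respiratory chain genes examined here were 10 genes of the mouse mitochondrial chromosome (MT): mt-Nd1, mt-Nd2, mt-Nd4, mt-Nd5, mt-Nd6, mt-Cytb, mt-Co1, mt-Co2, mt-Co3 and mt-Atp6. They were taken by name, and all 10 were present among the 18329 genes of the acute table and the 18953 genes of the survival table. They are 10 of the 13 protein-coding genes of the chromosome, the others being mt-Nd3, mt-Nd4l and mt-Atp8. The chromosome has 37 annotated genes in GENCODE M21, and its ribosomal and transfer RNAs were not analysed here.

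The RNA came from the spleens of leukemic C57BL/6 mice, which had been sub-lethally irradiated and injected intravenously with T-cell acute lymphoblastic leukemia (T-ALL) carrying a conditional knockout allele of Acly, the gene of ATP-citrate lyase, which makes cytosolic acetyl-CoA from citrate. All groups carried the same conditional allele. KO mice received 3 mg of tamoxifen in corn oil by intraperitoneal injection, which deletes Acly, and WT mice received corn oil alone, so tamoxifen itself cannot be told apart from the deletion. In the acute arm the mice were treated once overtly leukemic and spleens were taken 48 h later (4 KO acute and 4 WT acute libraries). In the survival arm treatment was given 48 h after transplant and spleens were taken at the humane endpoint, giving 3 KO libraries of a second wave, 3 KO libraries of a first wave and 4 WT survival libraries. What separates the waves is not stated in the labels, nor that each library is from another mouse or that all mice received the same primary leukemia. The p-values therefore cover only the variation among these libraries.

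The mitochondrial chromosome encodes the hydrophobic core subunits of the respiratory chain and the ATP synthase, while the nucleus encodes all other subunits and every protein that copies, transcribes and translates mitochondrial DNA. Transcription runs around both strands and gives long precursors that are cut into messenger, ribosomal and transfer RNAs, so the steady level of each messenger depends largely on its processing and decay. Of the 10 genes, mt-Nd6 alone is read from the other strand than the remaining 9. The mt-Nd genes encode subunits of the membrane arm of complex I, mt-Cytb the haem-carrying cytochrome b of complex III, mt-Co1 to mt-Co3 the catalytic core of complex IV (cytochrome c oxidase), and mt-Atp6 the subunit of ATP synthase that forms part of its proton path.

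Values are the deposited normalized counts, which are kallisto estimated counts divided by DESeq size factors per the submitters' processing notes. Library depth, estimated from the spacing of low values, was 6.08 to 12.7 M reads, and the 10 genes together took an estimated 153549 to 361561 reads per library, so counting error is small beside the spread between libraries. Acly read 619.639 to 803.767 in KO acute libraries and 1129 to 1422 in WT acute libraries. In the survival arm it read 505 to 800 in KO libraries of both waves and 1486 to 1854 in WT survival libraries, with no overlap in either arm. Acly RNA was thus lower but still present in every KO library. The 16 T-cell and T-ALL markers were in both tables and summed to 0.824% to 1.19% of counts in KO acute libraries and 1.16% to 1.35% in WT acute libraries.

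The mouse nuclear genome holds an insertion of mitochondrial DNA on the minus strand of chromosome 1 (GRCm38 chr1:24611535-24616197), which the GENCODE M21 annotation divides into 7 pseudogenes. Their sequences are given because some reads of mt-Atp6 and mt-Co1 cannot be assigned to the mitochondrial gene. Gm10925 (chr1:24613974-24614651) is identical to mt-Atp6 (MT:7927-8607, plus strand) over 678 of its 681 nt. The insertion itself was not read beyond the annotated end of Gm10925. The last 90 nt of mt-Atp6 (MT:8518-8607) and the matching end of Gm10925 (chr1:24613974-24614060) are, with capitals for the 3 bases beyond the annotated end of the pseudogene,
mt-Atp6: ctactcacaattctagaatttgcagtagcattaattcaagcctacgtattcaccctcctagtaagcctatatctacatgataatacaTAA
Gm10925: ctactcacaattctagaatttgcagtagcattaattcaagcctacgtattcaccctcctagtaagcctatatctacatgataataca
Gm29216 (chr1:24615706-24616197) matches the last 492 nt of mt-Co1 with 6 differences near its start, T1056A, C1057T, A1059G, A1060G, C1062A and A1066T, where positions count from 1 at the 5′ end of mt-Co1 and the mitochondrial base stands first. The remaining 479 nt are identical. A stretch of 50 nt around these differences is given with the differing bases in capitals (MT:6381-6430, plus strand, and chr1:24616148-24616197, minus strand),
mt-Co1: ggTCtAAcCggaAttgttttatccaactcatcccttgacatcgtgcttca
Gm29216: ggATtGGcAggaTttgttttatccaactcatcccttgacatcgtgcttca
Other pseudogenes of the insertion match mt-Co2 (Gm28661, 681 nt without a difference), mt-Co3 (Gm28437, not used here because it is in neither table) and the first 876 nt of mt-Nd4 (Gm28439). Gm28661 read 0 in every KO acute library and 0 to 25.5 in WT acute libraries, so it adds little to mt-Co2.

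Per kilobase of transcript, mt-Co2 was the most abundant of the 10 genes in all 5 groups. It averaged 96833 ± 33592 normalized counts per kb in KO acute libraries and 133707 ± 7959 in WT acute libraries (SD, n = 4 each). In the survival arm it averaged 136902 ± 15474 per kb in the second wave (SD, n = 3), 151463 ± 18957 in the first wave (SD, n = 3) and 128393 ± 28700 in WT survival (SD, n = 4). Every library of every group was above the next gene of its group. mt-Co3 and mt-Atp6 followed, at 40431 and 41995 per kb in KO acute libraries and 47449 and 32716 in WT acute libraries, and they overlapped each other in KO acute, second-wave and WT survival libraries. These values leave out Gm10925, which held 26.5% to 52.3% of its joint counts with mt-Atp6 in WT acute libraries and 0% to 10.2% in KO acute libraries. The place of mt-Atp6 below mt-Co3 in WT acute libraries depends on that split. mt-Co1, mt-Nd1, mt-Nd5, mt-Nd4 and mt-Nd6 came next in that order in all 5 groups. mt-Cytb and mt-Nd2 were lowest, at 7040 ± 2980 and 7581 ± 3804 per kb in KO acute libraries and 6621 ± 382 and 5826 ± 239 in WT acute libraries (SD, n = 4 each). Their order changed between these groups, and only in WT acute did every library of mt-Cytb lie above every library of mt-Nd2. In KO acute libraries no neighbours in the order other than mt-Co2 and the gene after it were separate in every library, while in WT acute libraries all neighbours were, except mt-Atp6 and mt-Co1.

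The acute comparison sets established leukemias 48 h after tamoxifen against those 48 h after corn oil. None of the 10 genes changed by the test, and their levels were widely spread among the KO acute libraries. The 10 genes together took 4.47%, 4.88%, 2.16% and 2.5% of all normalized counts in KO acute libraries 1 to 4, and 3.18%, 3.31%, 3.39% and 3.32% in WT acute libraries 1 to 4. KO acute libraries 1 and 2 were above all WT acute libraries and KO acute libraries 3 and 4 were below them. The means were 3.5% ± 1.37 in KO acute libraries and 3.30% ± 0.0898 in WT acute libraries (SD, n = 4 each), a difference of 0.201 percentage points that is smaller than the spread between KO acute libraries. On the log2 scale the difference of the shares was -0.00288, and without KO acute replicate 2 the difference was -0.260 percentage points.

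**Figure D1:**
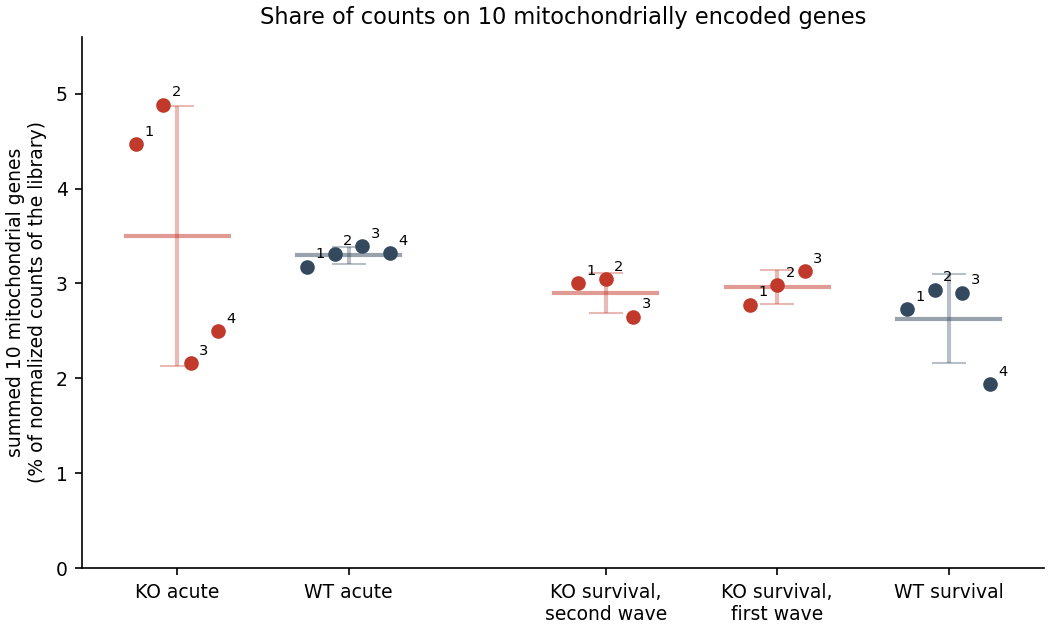
Summed share of the 10 mitochondrial genes in all normalized counts (percent, vertical axis) in each library, with KO groups left of their WT group and bars for mean and SD. The 4 KO acute points lie at 2.16% to 4.88% on both sides of the WT acute points at 3.18% to 3.39%, and WT survival replicate 4, at 1.94%, is the lowest point.

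Markers of other cells also varied among the KO acute libraries. The 13 neutrophil and precursor markers, none at 0 in any acute library, summed to 0.0551%, 0.0691%, 0.0332% and 0.0243% of counts in KO acute libraries 1 to 4 and to 0.0127% to 0.0245% in WT acute libraries. The 10 erythroid markers, also with none at 0, summed to 0.0659%, 0.146%, 0.0250% and 0.0316% in KO acute libraries 1 to 4 and to 0.0714% to 0.139% in WT acute libraries. The 16 T-cell and T-ALL markers summed to 0.932%, 0.824%, 1.19% and 1.05% in KO acute libraries 1 to 4. The stroma and endothelium markers, 5 of 6 in the acute table with at most 1 at 0, summed to 0.0153%, 0.0157%, 0.0133% and 0.0138% in KO acute libraries 1 to 4 and to 0.00826% to 0.0100% in WT acute libraries, without overlap. Most of this sum was 1 gene, Pecam1, at 942 ± 77.8 in KO acute libraries and 650 ± 55.8 in WT acute libraries (SD, n = 4 each). Of the 2 genes of this list that were tested, the other, Col1a2, overlapped between the groups (limma adjusted p = 0.362). The B-cell, macrophage, platelet and NK marker sums overlapped between the groups. KO acute libraries 1 and 2, with the higher mitochondrial shares, thus had the higher neutrophil and erythroid and the lower T-cell marker shares of the 4. The part of these cells in the mitochondrial values was not tested, and in bulk RNA fewer cells of a type and less RNA per cell cannot be told apart.

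Among the complex I genes, mt-Nd1 read 21039, 24794, 9653 and 11348 normalized counts in KO acute libraries 1 to 4, against 15992, 15259, 15081 and 16095 in WT acute libraries 1 to 4. mt-Nd2 read 10452, 12020, 4199 and 4805 in KO acute libraries, against 6200, 5783, 5896 and 6310 in WT acute libraries. mt-Nd4 read 22919, 22810, 9180 and 11137 in KO acute libraries, against 13580, 15124, 14303 and 16601 in WT acute libraries. Each of these 3 genes had the same arrangement, with KO acute libraries 1 and 2 above and 3 and 4 below all WT acute libraries. mt-Nd5 read 39937, 37142, 20260 and 19390 in KO acute libraries, against 24248, 23524, 24526 and 24775 in WT acute libraries. mt-Nd6 read 8470, 7556, 3785 and 4129 in KO acute libraries, against 4527, 4183, 4288 and 4478 in WT acute libraries. Both genes had that arrangement too. The log2 fold changes of KO over WT were -0.01 for mt-Nd1 (SE 0.23, adjusted p = 0.977), 0.23 for mt-Nd2 (SE 0.27, adjusted p = 0.611), 0.03 for mt-Nd4 (SE 0.24, adjusted p = 0.948), 0.19 for mt-Nd5 (SE 0.20, adjusted p = 0.574) and 0.36 for mt-Nd6 (SE 0.21, adjusted p = 0.286), by limma with Benjamini-Hochberg adjustment over 14184 genes.

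mt-Cytb of complex III read 11065, 10934, 4845 and 5371 in KO acute libraries, against 7103, 7323, 8052 and 7817 in WT acute libraries. The arrangement was that of mt-Nd1, with a log2 fold change of -0.01 (SE 0.23, limma adjusted p = 0.975).

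The complex IV genes followed. mt-Co1 read 49625, 57232, 21248 and 28859 in KO acute libraries, against 29382, 31290, 34103 and 38493 in WT acute libraries. mt-Co2 read 79319, 91722, 43873 and 50020 in KO acute libraries, against 93309, 96228, 92657 and 83629 in WT acute libraries. mt-Co3 read 42576, 46345, 17294 and 20574 in KO acute libraries, against 32427, 36752, 38456 and 41164 in WT acute libraries. mt-Co2 differed from the other members in that no KO acute library was above all WT acute libraries; its second KO acute library lay within the WT acute range and the other 3 lay below it. Its log2 fold change of -0.53 (SE 0.18) had an unadjusted p of 0.0123 and an adjusted p of 0.0755 by limma, the smallest of the 10 genes and above the threshold of 0.05. Without KO acute replicate 2 its log2 fold change was -0.71 with a limma adjusted p of 0.0126, and without KO acute replicate 3 it was -0.355. The largest limma adjusted p of mt-Co2 with 1 acute library left out was 0.177. With a variance prior that ignores the mean level, the smallest limma adjusted p of the 10 genes was 0.224. With robust eBayes it was 0.218. On the log2 scale KO acute over WT acute came to 0.13 for mt-Co1 (SE 0.24, limma adjusted p = 0.761) and -0.36 for mt-Co3 (SE 0.25, limma adjusted p = 0.385).

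mt-Atp6 read 38624, 35882, 18133 and 21755 in KO acute libraries, against 15848, 21820, 24496 and 26954 in WT acute libraries. The WT acute libraries were the most spread of the 10 genes, and KO acute over WT acute was 0.31 on the log2 scale (SE 0.22, limma adjusted p = 0.377).

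**Figure D2:**
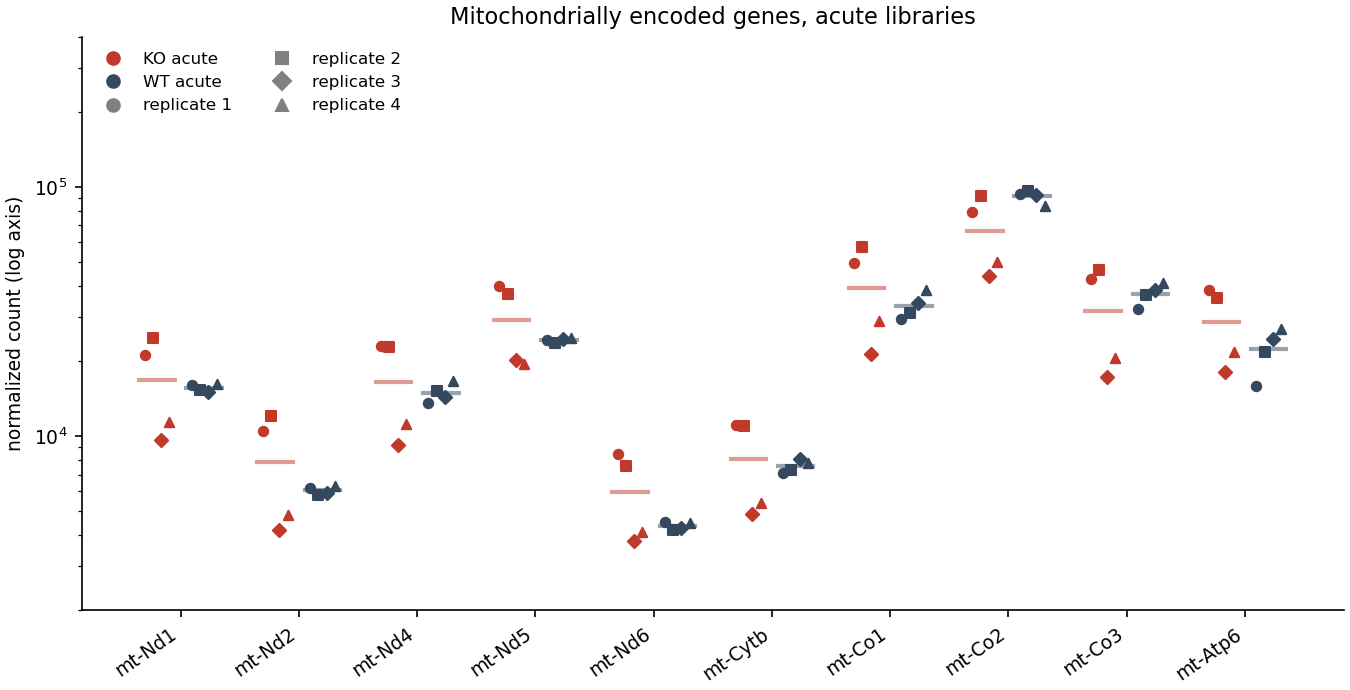
Normalized counts (log axis) of each of the 10 genes in the 4 KO acute libraries, drawn left of the 4 WT acute libraries, with a line at each group mean. For 8 genes KO acute libraries 1 and 2 lie above and 3 and 4 below all WT acute libraries, and for mt-Co2 no KO acute library lies above them all.

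In all, 0 of the 10 genes passed the adjusted threshold in the acute comparison, where 12.6% of the 14184 genes tested did, and 1 of 10 (mt-Co2) had an unadjusted p under 0.05, as 3984 of the 14184 genes did. None of the 10 had groups without overlap, against 19% of all genes tested. Their median log2 fold change was 0.08, with a range of -0.53 to 0.36, beside a median of 0.03 over all genes tested. The median depended on the scaling of the libraries: it was 0.20 after quantile normalization, where mt-Co1 (0.30, adjusted p = 0.0389) and mt-Atp6 (0.44, adjusted p = 0.0449) passed the limma test, and 0.63 after a trend on transcript length, base composition and mean level was removed from each library, where all 10 were positive and mt-Atp6 passed (0.90, adjusted p = 0.0333).

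The share of each gene in the sum of the 10 does not depend on the size factor of a library or on the total mitochondrial level, and it was much steadier between KO acute libraries than the levels were. mt-Co2 made up 24.5%, 26.5%, 28.8% and 28.2% of the sum in KO acute libraries 1 to 4, and 38.5%, 37.4%, 35.4% and 31.4% in WT acute libraries 1 to 4. These values did not overlap, with means of 27.0% ± 1.93 in KO acute libraries and 35.7% ± 3.11 in WT acute libraries (SD, n = 4 each). On the other side, mt-Nd6 made up 2.40% ± 0.188 in KO acute libraries and 1.70% ± 0.111 in WT acute libraries. mt-Nd2 made up 3.04% ± 0.370 in KO acute libraries and 2.36% ± 0.144 in WT acute libraries. Neither overlapped between groups. mt-Nd5 made up 11.8% ± 1.21 in KO acute libraries and 9.45% ± 0.374 in WT acute libraries, and mt-Atp6 made up 11.6% ± 0.851 in KO acute libraries and 8.62% ± 1.55 in WT acute libraries, also without overlap (SD, n = 4 each). The other 5 genes overlapped between groups. These shares sum to 100% in each library, so a smaller share of mt-Co2 alone makes the others larger, and they were not tested as a set. Full separation of 4 against 4 libraries arises in a fraction of 0.0286 of their arrangements. No count of separate shares was made over all genes, so chance separation cannot be told apart.

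**Figure D3:**
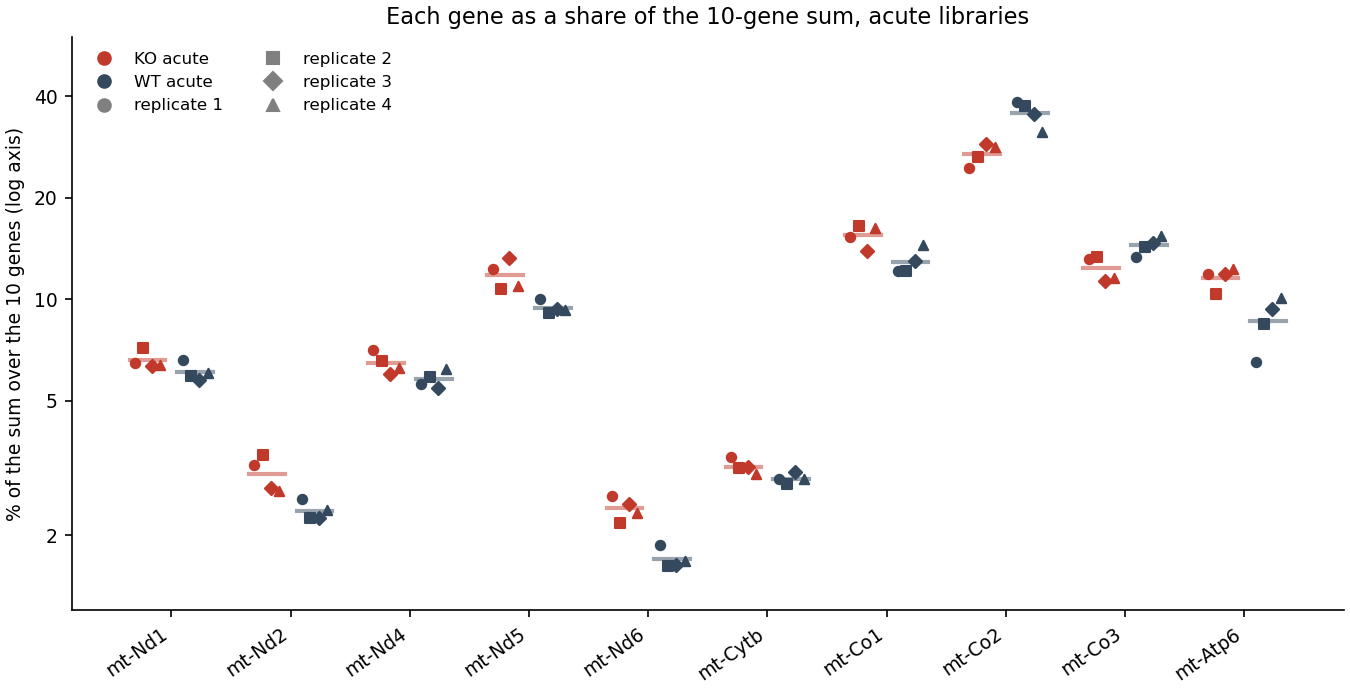
Share of each gene in the sum of the 10 genes (percent, log axis) in KO acute libraries, drawn left of WT acute libraries, with a point per library and a line at each group mean. mt-Co2 lies at 24.5% to 28.8% in KO acute libraries and 31.4% to 38.5% in WT acute libraries, and mt-Nd2, mt-Nd5, mt-Nd6 and mt-Atp6 lie higher in KO acute without overlap.

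When the chromosome 1 pseudogenes were added to their mitochondrial genes, mt-Co2 remained lower without overlap, at 26.7% of the sum in KO acute libraries and 33.4% in WT acute libraries. mt-Nd2, mt-Nd5 and mt-Nd6 remained higher without overlap, mt-Nd1, mt-Nd4 and mt-Cytb became so, and mt-Atp6 then overlapped, at 11.8% in KO acute libraries and 13.0% in WT acute libraries. These shares were not tested or counted over all genes either.

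mt-Nd6 was set against the sum of the other 9 genes because it is the light-strand gene. The log2 ratio was -5.22, -5.49, -5.30 and -5.39 in KO acute libraries 1 to 4, and -5.72, -5.92, -5.91 and -5.87 in WT acute libraries 1 to 4. Every KO acute library was above every WT acute library, which corresponds to 37.3 to 44.8 counts of the other genes per count of mt-Nd6 in KO acute libraries and 52.6 to 60.5 in WT acute libraries. The difference of means was 0.51, with an exact two-sided permutation p of 0.0286, the smallest that 4 against 4 libraries can give, and an adjusted p of 0.0857 over the 6 comparisons of this ratio. The genes were chosen with earlier results of these data known, which limits every p of this ratio. Leaving out each acute library in turn gave 0.46 to 0.55, and adding the chromosome 1 pseudogenes to the other genes gave 0.59. Against mt-Nd5 alone the difference was 0.18 (exact permutation p = 0.0286, again the smallest possible). There KO acute replicate 3 was only just above WT acute replicate 1. Other members taken against the remaining 9 in the same way differed too. The acute difference was 0.49 for mt-Atp6 (-0.16 with the pseudogenes), 0.37 for mt-Nd2, 0.36 for mt-Nd5 and 0.31 for mt-Co1. It was 0.12 to 0.17 for mt-Nd1, mt-Nd4 and mt-Cytb, -0.26 for mt-Co3 and -0.58 for mt-Co2. A rise was thus not particular to mt-Nd6, and the ratio was not taken without mt-Co2, the largest part of the sum.

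mt-Nd6 and mt-Nd5 overlap at their 3′ ends by 14 nt (MT:13552-13565), on opposite strands. The last 50 nt of each are shown with the overlap in capitals, mt-Nd5 from MT:13516-13565 on the plus strand and mt-Nd6 from MT:13552-13601 on the minus strand,
mt-Nd5: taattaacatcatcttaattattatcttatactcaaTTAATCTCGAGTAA
mt-Nd6: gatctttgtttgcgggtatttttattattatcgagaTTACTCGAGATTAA
The libraries were strand-specific per the labels' protocols, but no source used here gives the strand setting of the counting. If strand was not used, counts of mt-Nd6 would include any plus-strand RNA across MT:13552-14070, and such RNA and mt-Nd6 could not be told apart.

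For mt-Atp6 the direction depended on whether the pseudogene was counted with it. Gm10925 read 206, 4088, 0 and 13.9 in KO acute libraries 1 to 4, and 17403, 16864, 8822 and 11090 in WT acute libraries 1 to 4. The groups did not overlap, and Gm10925 was lower in KO acute libraries with an adjusted p of 0.0101 by limma. Of the counts on mt-Atp6 and Gm10925 together, 0.530%, 10.2%, 0% and 0.0637% were on the pseudogene in KO acute libraries 1 to 4, and 52.3%, 43.6%, 26.5% and 29.2% in WT acute libraries 1 to 4. The sum of both read 38829, 39970, 18133 and 21769 in KO acute libraries and 33251, 38684, 33318 and 38044 in WT acute libraries. The sum gave a log2 fold change of -0.35 (SE 0.21, limma adjusted p = 0.289), of the opposite sign to that of mt-Atp6 alone. Since the sequences are identical over 678 nt, how the estimated counts divide between them was not tested.

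**Figure D4:**
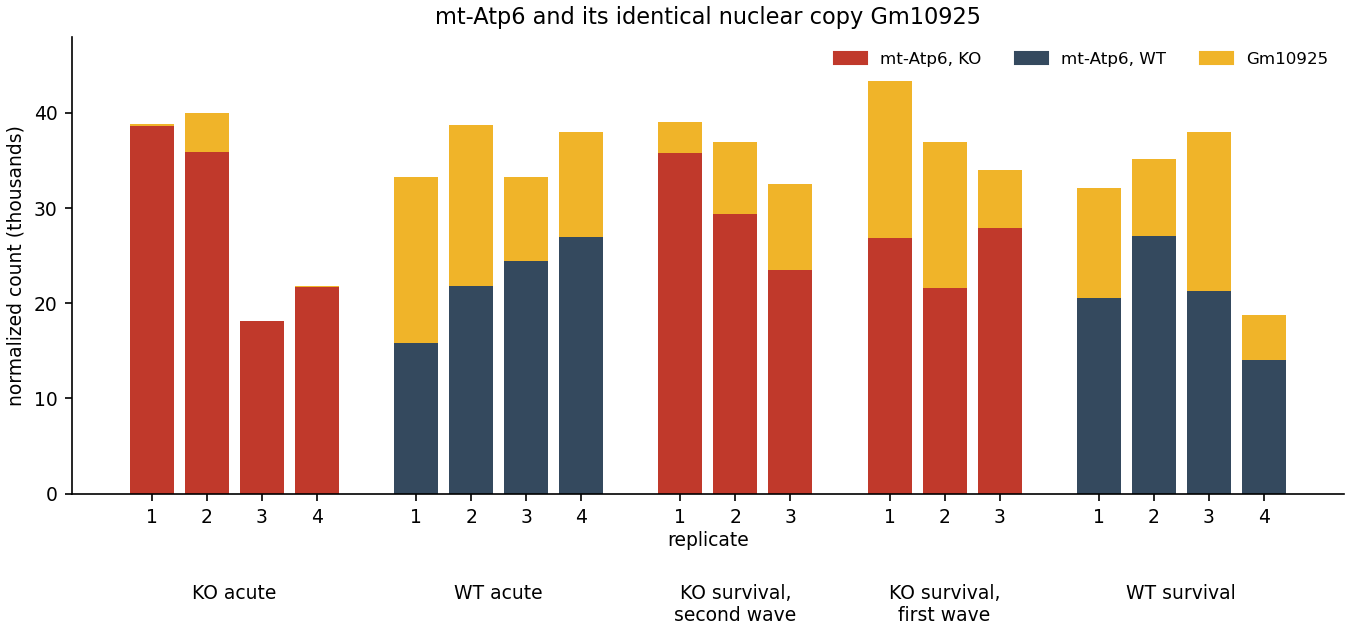
Normalized counts on mt-Atp6 and on its chromosome 1 pseudogene Gm10925, stacked (linear axis from 0), in each library, with KO groups left of their WT group. In the acute arm the pseudogene holds 0% to 10.2% of the stack in KO acute libraries and 26.5% to 52.3% in WT acute libraries, while the total heights overlap.

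For mt-Co1 the pseudogene held 3.68% ± 0.993 of the joint counts in KO acute libraries and 10.7% ± 3.24 in WT acute libraries (SD, n = 4 each). Gm29216 read 1956, 2938, 536 and 1070 in KO acute libraries 1 to 4, and 4291, 5015, 3676 and 2727 in WT acute libraries 1 to 4. It fell by 1.51 on the log2 scale in KO acute libraries (SE 0.38, limma adjusted p = 0.0210), although the groups overlapped. Added to mt-Co1 it gave a log2 fold change of 0.02, beside 0.13 for mt-Co1 alone.

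Several nuclear-encoded partners of these genes fell in the acute arm. Of 40 nuclear subunits of complexes I, III, IV and ATP synthase, 14 fell in KO acute libraries and 0 rose by limma, where 8.07% of all genes tested fell, and their median log2 fold change was -0.49. ATP synthase had 6 of 11 lower, among them Atp5b, the catalytic beta subunit, at 1747 ± 99.6 in KO acute libraries and 3490 ± 479 in WT acute libraries (log2 fold change -0.99, SE 0.11, adjusted p = 0.000790). Atp5c1, the gamma subunit of the rotor shaft, fell by 1.00 on the log2 scale (SE 0.13, limma adjusted p = 0.000955), and Atp5o, a subunit of the stalk that holds the catalytic head, fell by 1.43 (SE 0.21, limma adjusted p = 0.00131). Complex IV had 4 of 9 lower, with Cox5a, a structural subunit beside the mitochondrially encoded core, at 1134 ± 361 in KO acute libraries and 2161 ± 129 in WT acute libraries (limma adjusted p = 0.00493), and the small subunit gene Cox7c at 303 ± 66.8 in KO acute libraries and 571 ± 30.9 in WT acute libraries (limma adjusted p = 0.00361). Cox4i1 fell by 0.56 (limma adjusted p = 0.0416). Complex III had 3 of 8 lower, with the core protein gene Uqcrc2 at 560 ± 159 in KO acute libraries and 1178 ± 143 in WT acute libraries (limma adjusted p = 0.00265), and Uqcrfs1, the iron-sulfur protein, fell by 0.63 (limma adjusted p = 0.0310) and Uqcr10 by 0.70 (limma adjusted p = 0.0410). Complex I had 1 of 12 lower, Ndufs8, an iron-sulfur subunit, at 68.1 ± 13.8 in KO acute libraries and 158 ± 11 in WT acute libraries (limma adjusted p = 0.00513), while Ndufa10 at -0.65 (limma adjusted p = 0.0686) and Ndufs3 at -0.48 (limma adjusted p = 0.214) did not pass. Ndufa10 passed with the replicate block (limma adjusted p = 0.0309) and without KO acute replicate 3 (limma adjusted p = 0.00723). All SDs are over 4 libraries each. The count of lower subunits was 7 with total-count scaling, 6 with a variance prior that ignores the mean level in limma and 6 after that trend removal, with 0 higher each time. Of all genes tested, 718, 407 and 609 fell under these settings, against 1144 in the main fit. Leaving out KO acute replicate 1 gave 9, and leaving out WT acute replicate 3 or 4 gave 8 or 7. Of all genes tested, 917, 789 and 648 fell in these fits. By complex, the lower subunits numbered 3 to 6 for ATP synthase (3 without WT acute replicate 4), 1 to 5 for complex IV (2 without KO acute replicate 1 or any 1 of WT acute replicates 2, 3 and 4, and with the replicate block), 1 to 4 for complex III (1 without KO acute replicate 1 or WT acute replicate 3 or 4) and 1 to 2 for complex I over all 20 alternatives.

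Summed, the 40 nuclear subunits took 0.177%, 0.192%, 0.225% and 0.211% of counts in KO acute libraries 1 to 4, and 0.289%, 0.271%, 0.287% and 0.294% in WT acute libraries 1 to 4. All KO acute libraries were below all WT acute libraries, unlike for the mitochondrial genes. The T-cell and T-ALL marker sum, at 0.824% to 1.19% of counts in KO acute libraries and 1.16% to 1.35% in WT acute libraries, was lower in KO acute libraries on average. Its members disagreed, as Tcf7 fell by 0.91 and Trbc2 by 0.52 on the log2 scale while Cd4 rose by 1.11 (limma adjusted p = 0.00158, 0.0129 and 0.0220). The stroma and endothelium marker sum, mostly Pecam1, was higher in every KO acute library. The part of these cells in the lower share of the nuclear subunits was not tested. The 10 mitochondrial genes exceeded the nuclear subunits 25.3, 25.5, 9.58 and 11.8 times in KO acute libraries and 11, 12.2, 11.8 and 11.3 times in WT acute libraries. KO acute libraries 1 and 2 thus stood apart in this ratio, while KO acute library 4 lay within the WT acute range and library 3 below it.

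**Figure D5:**
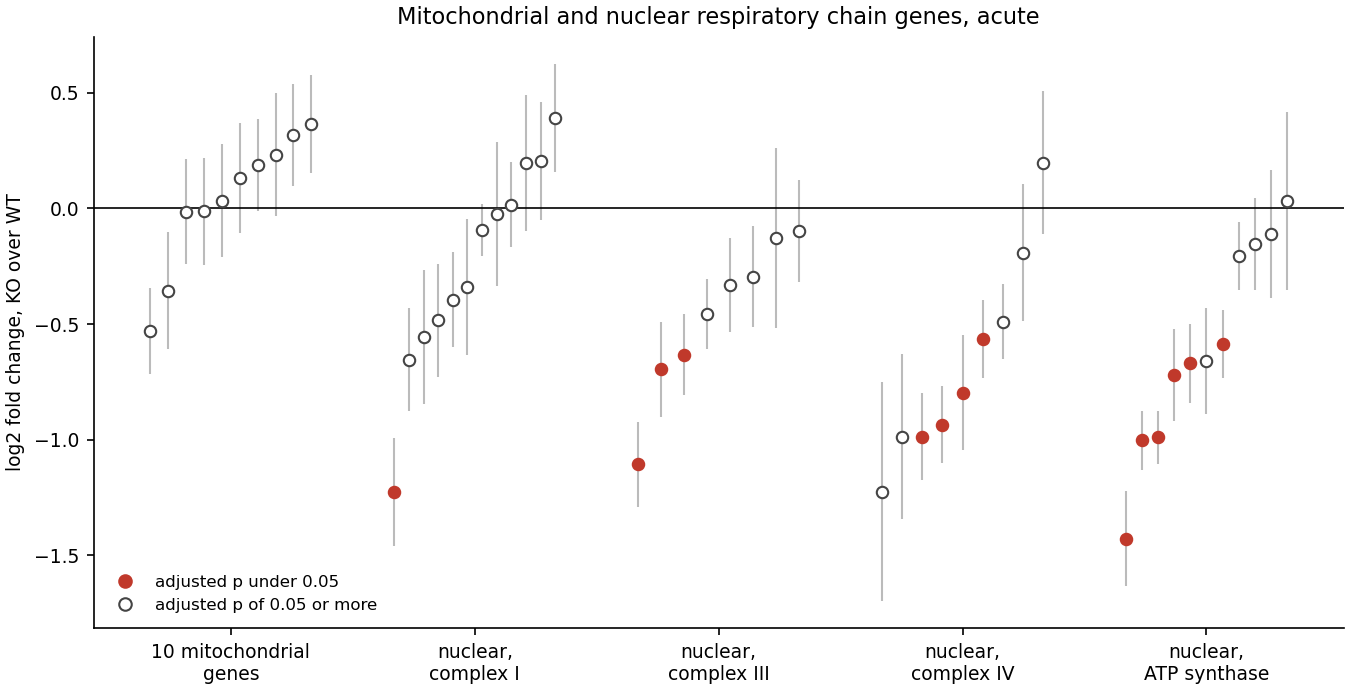
Log2 fold changes of KO acute over WT acute for the nuclear subunits by complex and for the 10 mitochondrial genes, with vertical bars for the SE and filled points for genes past the adjusted threshold of 0.05. The mitochondrial genes lie at -0.53 to 0.36 with none filled, and 14 of 40 nuclear subunits are filled, all below 0.

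Factors that act on mitochondrial DNA and RNA were read against the 4.58% of all genes tested that rose and the 8.07% that fell in the acute arm. Of 16 tested genes of mitochondrial transcription and genome maintenance, 1 rose and 0 fell. It was Polg, the catalytic subunit of the mitochondrial DNA polymerase, at 643 ± 237 in KO acute libraries and 343 ± 138 in WT acute libraries (SD, n = 4 each; log2 fold change 0.92, SE 0.27, limma adjusted p = 0.0398). Its groups overlapped, and the call was lost with the variance prior that ignores the mean level, after the trend removal, or without KO acute replicate 1 or 2 or WT acute replicate 2, 3 or 4. The next genes of that list by p were Mterf3 (log2 fold change -0.33, limma adjusted p = 0.112) and Ssbp1 (-0.27, limma adjusted p = 0.284), and Mterf3 passed without KO acute replicate 1 (-0.44, limma adjusted p = 0.0403). Of 22 tested genes of mitochondrial RNA processing, stability and decay, 4 fell and 0 rose. Mtpap, the mitochondrial poly(A) polymerase, read 629 ± 89.7 in KO acute libraries and 940 ± 77.6 in WT acute libraries (SD, n = 4 each; limma adjusted p = 0.0146). Trmt10c and Hsd17b10 encode subunits of mitochondrial RNase P, which cuts the precursors at the 5′ ends of tRNAs. Trmt10c fell by 0.94 on the log2 scale (SE 0.23, limma adjusted p = 0.0159), and Hsd17b10 fell by 1.18 (SE 0.29, limma adjusted p = 0.0183). The other gene that fell was Fastkd5, named after its value was seen. The count of 4 was 0 with the other variance prior, 2 after the trend removal and 1 without WT acute replicate 4. Of 9 nuclear regulators of mitochondrial biogenesis 1 fell, the transcription factor gene Yy1, at 1624 ± 134 in KO acute libraries and 2416 ± 432 in WT acute libraries (SD, n = 4 each; limma adjusted p = 0.0142), a call lost with the other variance prior or without WT acute replicate 4. Pprc1, a coactivator gene of the PGC-1 family, had a log2 fold change of 0.55 (SE 0.18, limma adjusted p = 0.0564) and Gabpa one of -0.30 (limma adjusted p = 0.130). Pprc1 passed, as higher in KO acute libraries, with a filter of 50, with quantile, total-count or off-MT scaling, with a replicate block (limma adjusted p = 0.0379), and without KO acute replicate 4 or WT acute replicate 2. Of 9 genes for complex IV assembly and copper supply 0 passed by limma, and 0 had an unadjusted p under 0.05, with the smallest p for Sco1, Cox14 and Cox10.

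In the survival arm, where leukemias grew out after treatment, none of the 10 genes passed the test in either wave. The 10 genes took 3.00%, 3.04% and 2.65% of counts in the second wave and 2.78%, 2.98% and 3.13% in the first wave, against 2.73%, 2.94%, 2.90% and 1.94% in WT survival libraries 1 to 4. The means were 2.90% ± 0.215 in the second wave (SD, n = 3), 2.96% ± 0.177 in the first wave (SD, n = 3) and 2.63% ± 0.468 in WT survival (SD, n = 4). All groups overlapped. WT survival replicate 4 was the lowest of the 10 survival libraries for all 10 genes, and it sets most of the difference: both waves exceeded WT survival by 0.305 percentage points with it and by 0.0750 without it. The neutrophil markers summed to 0.00397% to 0.00552% of counts in the second wave, 0.00389% to 0.00486% in the first wave and 0.00339% to 0.0184% in WT survival. The T-cell and T-ALL markers summed to 1.00% to 1.14%, 1.21% to 1.48% and 0.789% to 1.27% in these groups, so the waves did not overlap. B-cell markers summed to 0.00139% to 0.00228%, 0.00302% to 0.00332% and 0.00300% to 0.00607%. NK-cell markers summed to 0.00337% to 0.00587%, 0.00649% to 0.00769% and 0.00631% to 0.00902%. Both were lower in the second wave without overlap. The other marker sums overlapped. The part of these cells in the shares was not tested.

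In the second wave 0 of 10 genes passed by limma, where 0.224% of the 14286 genes tested did, and 1 of 10 and 1857 of all genes had an unadjusted p under 0.05. mt-Atp6 read 35749, 29402 and 23518 in second-wave libraries 1 to 3, against 20582, 27107, 21334 and 14059 in WT survival libraries 1 to 4. It had a log2 fold change of 0.53 (SE 0.20, unadjusted p = 0.0216, limma adjusted p = 0.297), and of 0.27 when summed with Gm10925 (SE 0.20, limma adjusted p = 0.599). The pseudogene held 8.50%, 20.5% and 27.7% of the sum in the second wave and 36%, 23.0%, 43.8% and 25.0% in WT survival libraries. The 10 genes had 9 positive and 1 negative log2 fold change with a median of 0.16, and without WT survival replicate 4 the median was -0.03 and 5 of 10 were positive.

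In the first wave 0 of 10 genes passed by limma and 0% of all genes tested did. An unadjusted p under 0.05 was found for 1 of 10 and for 1146 of all genes. mt-Co3 read 35317, 42192 and 44026 in first-wave libraries 1 to 3, against 33189, 31794, 37628 and 23532 in WT survival libraries 1 to 4. It had the smallest p of the 10 (log2 fold change 0.38, SE 0.17, unadjusted p = 0.0391, limma adjusted p = 0.617), and its groups overlapped. The 10 genes had 8 positive and 2 negative log2 fold changes with a median of 0.11, against 0.01 over all genes. Without WT survival replicate 4 the median was -0.07 and 4 of 10 were positive, and after the trend removal it was -0.0024 with 5 positive. Both waves share the WT survival libraries, so their signs are not independent.

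Of the complex I genes, mt-Nd1 ranged from 19386 to 23682 in the second wave and from 17995 to 21101 in the first wave, against 12212 to 22450 in WT survival. mt-Nd2 ranged from 6716 to 9295 in the second wave and from 7106 to 7538 in the first wave, against 4553 to 9626 in WT survival. mt-Nd4 ranged from 13461 to 19792 in the second wave and from 16483 to 17831 in the first wave, against 9402 to 17788 in WT survival. In each of these genes the WT survival range was the widest and overlapped both waves. mt-Nd5 ranged from 26762 to 33633 in the second wave and from 27921 to 29826 in the first wave, against 18828 to 31772 in WT survival. mt-Nd6 ranged from 4411 to 5951 in the second wave and from 4874 to 6146 in the first wave, against 3305 to 6544 in WT survival. mt-Cytb ranged from 8162 to 10391 in the second wave and from 7681 to 9051 in the first wave, against 6095 to 10344 in WT survival. The complex IV gene mt-Co1 showed the same overlap, at 33876 to 40384 in the second wave, 36107 to 40799 in the first wave and 27521 to 44538 in WT survival.

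mt-Co2, the gene with the smallest acute p, read 85271, 105538 and 90114 in the second wave and 91587, 101868 and 117346 in the first wave, against 94044, 99332, 99296 and 58612 in WT survival libraries. Its share of the 10-gene sum was 32.7% ± 4.0 in the second wave (SD, n = 3), 34.9% ± 2.16 in the first wave (SD, n = 3) and 33.6% ± 0.689 in WT survival (SD, n = 4), and the groups overlapped. In the second wave mt-Co1 had a lower share, at 12.7% ± 0.907 (SD, n = 3), than in WT survival, at 14.6% ± 1.18 (SD, n = 4), without overlap, but it overlapped once the pseudogenes were added. The complex I gene mt-Nd5 had a lower share in the first wave, at 9.75% ± 0.290 (SD, n = 3), than in WT survival, at 10.5% ± 0.315 (SD, n = 4), without overlap. mt-Cytb likewise made up 2.89% ± 0.141 in the first wave (SD, n = 3) and 3.43% ± 0.180 in WT survival (SD, n = 4). Shares without overlap thus numbered 1 of 10 in the second wave and 2 of 10 in the first wave. They were not tested, and no such count was made over all genes, so chance separation cannot be told apart.

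With both waves against WT survival, 0 of 10 genes passed by limma, beside 0.021% of genes tested, 1 of 10 (mt-Atp6) had an unadjusted p under 0.05, and adjusted p ranged from 0.349 to 0.999. The second wave against the first wave gave 0 of 10, beside 0.119% of genes tested, and 0 of 10 with an unadjusted p under 0.05, with log2 fold changes from -0.17 to 0.20. mt-Nd5 made up 10.8% ± 0.358 of the sum in the second wave and 9.75% ± 0.290 in the first wave (SD, n = 3 each), the only 1 of 10 shares that did not overlap between the waves. Full separation of 3 against 3 libraries arises in a fraction of 0.1 of their arrangements, so 1 of 10 shares is what chance gives. The lists of mitochondrial factors and the 40 nuclear subunits gave 0 calls in each survival comparison, with 1 to 4 nuclear subunits at an unadjusted p under 0.05. Without WT survival replicate 3, Pprc1 was called higher in the second wave (log2 fold change 1.81, limma adjusted p = 0.0367) and in both waves (1.40, limma adjusted p = 0.0496).

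The log2 ratio of mt-Nd6 to the other 9 genes was -5.65, -5.65 and -5.84 in the second wave and -5.47, -5.77 and -5.99 in the first wave, against -5.73, -5.45, -5.67 and -5.72 in WT survival libraries. These groups overlapped, and both waves together differed from WT survival by -0.08 (exact permutation p = 0.443, adjusted p = 0.651 over the 6 comparisons). The acute difference exceeded the survival difference by 0.59 (exact permutation p = 0.00694 over KO and WT labels within each arm, adjusted p = 0.0416), a comparison chosen after the values were seen. Leaving out each of the 18 libraries in turn gave 0.53 to 0.64. The arms differ in time after treatment and in the stage at which it was given, and the tables were normalized separately, which a ratio within a library does not depend on.

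By the closeness of log2 profiles across libraries, the nuclear genes most like the summed 10 genes in the acute table were Thoc3, Gatad2a, Pabpc4, Kat14 and Csnk2b, with root mean square differences of 0.154 to 0.194 among 7773 genes over 8 libraries. In the survival table they were Rsl1d1, Ciao2a, Rbm3, Hnrnpk and Med18, at 0.0733 to 0.0984 among 8212 genes over 10 libraries. The members themselves lay at 0.0781 to 0.287 from their own sum in the acute table and at 0.0709 to 0.213 in the survival table. A gene with no variation would lie at 0.375 in the acute table and 0.225 in the survival table. Genes ranked had a mean of at least 100, and predicted genes, pseudogenes and receptor segments were left out. No gene was in both lists of 5.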

How the data were processed

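Spleens were filtered at 40 µm and freed of red cells, and strand-specific total RNA libraries were made, per the labels' protocols. The deposited values (signal) are kallisto 0.44.0 estimated counts on GRCm38 divided by DESeq size factors, per the submitters' processing notes. No source used here gives the annotation, the strand setting, the filters or the version of the tool behind the size factors. The acute and survival tables were normalized separately and fitted separately. Of values under 8, 38.0% to 63.5% per library were whole multiples of 1 read within 0.02, so no count test was run. Log2(value + 1) of genes with a mean of at least 10 was fitted in limma 3.58.1 (R 4.3.3, eBayes with trend) with 1 coefficient per group, and p-values were adjusted by Benjamini-Hochberg over all genes at 0.05. Fold changes are on the log2(value + 1) scale, which understates low genes. Ratios within libraries were compared by exact two-sided permutation. The planned permutation p of the summed share of the 10 genes is not given, since it scores the whole set. Members and lists were chosen with earlier results of these data known, which also limits the p of the mt-Nd6 ratio. Beside the 10 genes, the text names the 3 genes with the smallest acute adjusted p of each list of nuclear subunits or mitochondrial factors, and Fastkd5, named after its value was seen. It also names the 3 T-cell markers with the smallest acute adjusted p and the 2 tested stroma and endothelium markers. Pseudogenes were found with blastn 2.17.0 in GENCODE M21 transcripts, and sequences are from those transcripts. The fits were tested on simulated data. Alternatives were pseudocounts, filters, scalings, moderation, a replicate block and leaving out each library.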

Additional observations from a re-analysis of the deposited data

Results flagged for a closer look

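Among 63 groups of 4 libraries examined for a single library apart from the rest, 1 was found. Chance gives about 1 in every 20 groups, so 1 of 63 is no more than chance gives. The normalized count of mt-Co2 in WT survival replicate 4 was 58612, against 94044, 99332 and 99296 in the other WT survival libraries. That library was the lowest of the survival arm for all 10 genes and had the greatest estimated depth, 12.7 M reads.

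The KO and WT difference in the log2 ratio of mt-Nd6 to the other 9 genes differed between the arms. It was 0.51 in the acute arm and -0.08 over both survival waves, and the difference of 0.59 had an exact permutation p of 0.00694. The test was chosen after the values were seen. In the acute arm mt-Nd2 and mt-Nd5 also rose against the other members (0.37 and 0.36), while mt-Co2 and mt-Co3 fell (-0.58 and -0.26). A rise of this ratio was thus not particular to mt-Nd6.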

How the results depend on the processing

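With a variance prior that ignores the mean level (eBayes without trend) the genes called were 693 in the acute arm, 14 in the second wave and 1 between the waves, against 1794, 32 and 17; after removal of a trend on transcript length, base composition and mean level the acute count was 1163. The first wave count of 0 was 1 with a pseudocount of 5, without a filter, with a filter of 50, with quantile, total-count or off-MT scaling, with robust eBayes and with the trend removed. The second wave count was 13 when fitted on the groups compared alone. Of the 10 genes, 2 were called in the acute arm after quantile normalization and 1 with the trend removed. The acute difference in share was -0.00288 on the log2 scale. Total-count and off-MT scaling moved the acute median of all genes to 0.16 and the calls to 1094 higher and 718 lower, and 1123 higher and 735 lower, against 650 and 1144. The causes were not tested.

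Leaving out each library gave 983 to 1634 genes called in the acute arm (1179 without WT acute replicate 2 and 983 without replicate 4), 15 to 140 in the second wave (140 without WT survival replicate 3), 0 to 3 in the first wave, 2 to 155 for both waves (155 without WT survival replicate 3) and 1 to 38 between the waves. It gave 0 to 1 members called in the acute arm and 0 in each survival comparison. The share difference in percentage points was -0.260 to 0.649 in the acute arm, 0.0427 to 0.396 in the second wave, 0.107 to 0.44 in the first wave, 0.0750 to 0.408 for both waves and -0.158 to 0.0591 between the waves; the acute minus survival difference in log2 share was -0.18 and ranged from -0.368 to 0.0247. The mt-Nd6 difference was 0.46 to 0.55 in the acute arm, -0.14 to -0.02 for both waves and 0.53 to 0.64 between the arms.

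Same-numbered libraries did not deviate together (correlations of -0.029 to 0.0065 over 4 acute pairs and -0.029 to 0.0946 over 9 survival pairs), so no pairing by number was seen. Such correlations cannot show whether these libraries share a donor leukemia or a processing day. With the replicate number as a block 1391 genes were called in the acute arm and 2 between the waves, and 0 of the 10 genes in any comparison.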

Other observations

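The other 3 protein-coding genes of the mitochondrial chromosome also passed no test by limma. In the acute arm the log2 fold change was -0.36 for mt-Nd3 (SE 0.16, unadjusted p = 0.0456, adjusted p = 0.169), 0.13 for mt-Nd4l (SE 0.24, adjusted p = 0.775) and -0.08 for mt-Atp8 (SE 0.28, adjusted p = 0.886). In the first wave mt-Atp8, whose last 43 nt overlap the start of mt-Atp6 on the same strand, was higher than in WT survival without overlap, with a log2 fold change of 0.54 (SE 0.25, adjusted p = 0.617). mt-Nd4l overlaps mt-Nd4 by 7 nt in the same way.

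The pseudogene Gm28439, identical to the first 876 nt of mt-Nd4, read 1019 in WT survival replicate 1 and 0 in every other survival library.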
